A study of Mus musculus with 6 samples.

Results

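The genes described here encode the mitogen-activated protein (MAP) kinase cascade, taken by name. Every probe set with a single gene symbol beginning Mapk, Map2k, Map3k or Map4k and a digit, or Mapkapk and a digit, or Mapk8ip, was included. This gave 72 probe sets for 38 genes, of 22626 probe sets on the array that were not controls and 12394 genes with a symbol of their own. The rule reads gene symbols alone, and it was set with earlier results of these data known, so the members' counts are given as a description beside those of all probe sets. Of the 38 symbols, 36 name kinases or their scaffolds, and Map2k3os (a long noncoding RNA gene) and Map3k7cl (a gene related to Map3k7 that lacks its kinase domain) matched through their names.

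Transcripts were measured in C2C12 myotubes, made from an established mouse myoblast line that fuses when serum is lowered. One group of 3 arrays came from myotubes given 500 µM palmitate, a saturated long-chain fatty acid carried on bovine serum albumin (BSA), for 16 h. The other group of 3 arrays came from myotubes given 1% BSA for 16 h. In both groups the cells had been grown to confluence in 20% fetal bovine serum and differentiated for 5 days in 2% horse serum. The labels give no BSA percentage for the palmitate cultures. All arrays come from 1 cell line, and the labels do not say that the numbered replicates were separate cultures, so a p-value measures only the spread between these arrays, which may be technical.

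A MAP kinase cascade passes a signal along kinases that phosphorylate each other in turn. A MAP4K or a small GTPase switches on a MAP3K, the MAP3K activates a MAP2K, and the MAP2K activates a MAP kinase of the ERK, JNK or p38 family, which then acts on transcription factors and on further kinases such as those of the MAPKAPK family. JIP scaffold proteins hold the members of a JNK module together. In skeletal muscle the p38 branch is known for driving myoblast differentiation, and the JNK branch is known to be switched on by saturated fatty acids. An array of transcripts measures neither the phosphorylation of these proteins nor their assembly on scaffolds.

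The values are MAS 5 signals on a linear scale, and a probe set is a group of short probes against a single target. Probe sets whose mean log2 signal over the 6 arrays lay above the 40th percentile (a signal of 267.1) were tested by limma on log2 signals, with p-values adjusted by Benjamini-Hochberg over all 13575 that were kept, and a call is an adjusted p under 0.05. Of the 72 member probe sets, 50 passed that filter and stood for 28 genes. The other 22 were too dim to be tested. The genes Map4k1, Map3k1, Map3k2, Map3k5, Map3k21, Map2k6, Mapk10, Mapk13, Mapk8ip1 and Map3k7cl were represented by dim probe sets alone. A value called a log2 fold change below is palmitate over BSA, and ± gives its SE in the limma model (n = 3 arrays in each group).

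Most of the cascade probe sets tested were not called. Of the 50 probe sets tested, 5 were called higher in palmitate and 1 lower. Among all probe sets tested 19.2% were called, 8.63% as higher and 10.6% as lower, so the members' 6 of 50 was below the background share. That shortfall lay in the lower calls, 1 of 50, while the 5 of 50 called higher were slightly above the background share of higher calls. These differences from the background were not tested. The 5 higher probe sets belonged to Mapk6, which encodes the atypical MAP kinase ERK3 (2 of 2 probe sets), to Map2k3, which encodes the p38 kinase MKK3 (2 of 2), and to Map2k3os (its single probe set). The lower probe set was 1 of the 3 of Map3k12, which encodes the dual leucine zipper kinase. Counted by gene, with each gene represented by its probe set of highest mean signal, 3 of 28 genes were called and all 3 were higher. Over all 7931 genes tested 20.2% were called, 7.92% as higher and 12.3% as lower, so by gene too only the lower calls fell short. The groups did not overlap for 12 of the 50 member probe sets (24.0%), against 37.2% of all probe sets tested. The median log2 fold change was 0.21 over the member probe sets and -0.01 over all probe sets tested, and 33 of the 50 members were above 0. The median SE was 0.27 over the members and 0.22 over all, and a member that was not called is not thereby shown to be unchanged.

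**Figure D1:**
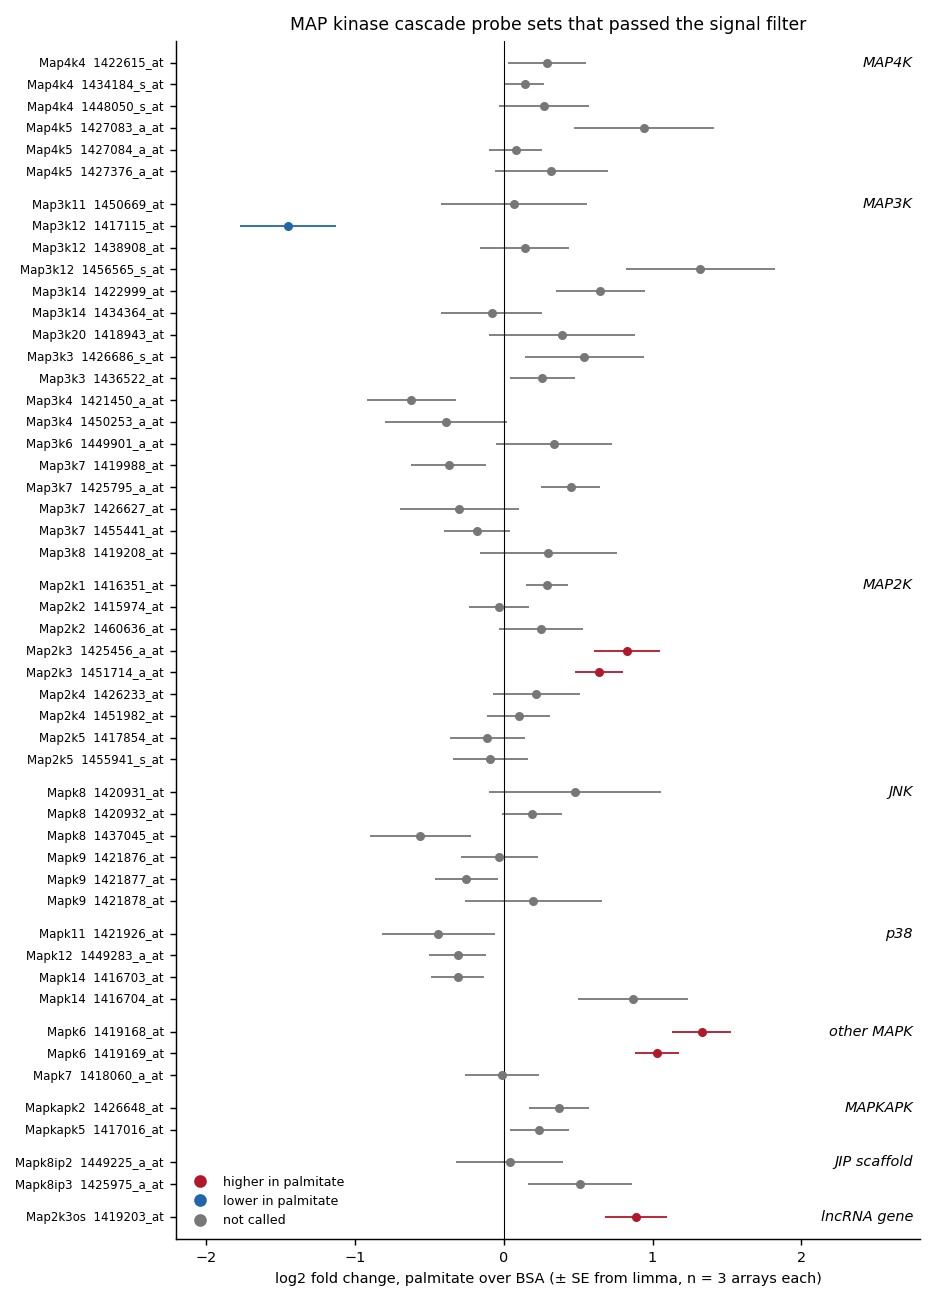
Log2 fold change of each of the 50 probe sets tested (horizontal axis, palmitate over BSA, bars for the SE of the limma model, n = 3 arrays in each group), arranged by tier of the cascade. Mapk6, Map2k3 and Map2k3os are called higher, 1 probe set of Map3k12 at -1.45 is called lower, and the 44 grey probe sets lie between -0.62 and 1.32.

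Muscle transcripts were abundant on every array. All 18 myotube markers passed the filter, among them Myog, Acta1, Ckm and the embryonic myosin Myh3, and 1 of them, Myod1, was called lower (-1.33 ± 0.16, adjusted p = 0.000139) while 0 were called higher. Their summed signal was 264453 to 277909 in palmitate and 241690 to 362600 in BSA. Several of them were far brighter on BSA replicate 1 than on BSA replicates 2 and 3, such as Des (19724, against 7530 and 7151). Mb was too (3664, against 1337 and 1198), while Myl1 was not (47264, against 51698 and 42892). Markers of unfused or cycling myoblasts were lower in palmitate for 4 of 6 genes tested, with a summed signal of 12821 to 14570 in palmitate against 23489 to 27414 in BSA, and Pax7 was too dim to be tested. Fibroblast markers were lower for 4 of 4 genes tested (Thy1 was too dim), with a sum of 15124 to 15401 in palmitate and 45054 to 55805 in BSA. Over all 7931 genes tested, 7.92% were called higher and 12.3% lower. Of 6 macrophage markers 3 were tested and 0 called, and no adipocyte or endothelial marker was bright enough to be tested. All arrays come from an established myoblast line, so the fibroblast markers do not by themselves show that fibroblasts were present. In such bulk RNA, fewer cells of a type and less RNA per cell cannot be told apart. The part of these marker shifts in the values of the cascade genes was not tested. Pearson's r between arrays was 0.943 to 0.959 inside a group and 0.883 to 0.910 across groups. Palmitate replicate 2 had the lowest 3' to 5' log2 ratio of the Gapdh control probe sets, a measure of RNA integrity (-0.20, against 0.19 to 0.35 on the other arrays). Its ratio for the actin control probe sets was also the lowest (0.24, against 0.47 to 0.60). A lower ratio means less 3' signal relative to 5' signal, so this array did not have the strongest 3' bias. Spiked-in hybridisation controls were brighter in palmitate (mean log2 signal of 13.04 to 13.31, against 12.73 to 12.97 in BSA). Scaling the arrays to those controls lowers every log2 fold change by 0.33 and moves the median of all probe sets to -0.34. Under that scaling 16 of the 50 members were above 0 and 34 below, with a median of -0.12. That scaling also put all 18 myotube markers below 0 and called 9 of them lower, among them Myod1, Mef2c, Mb and Mylpf. The member calls it gives are 2 higher (both of Mapk6) and 3 lower (1 probe set each of Map3k12, Map3k4 and Mapk14).

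Among the MAP kinases themselves, the only calls were those of Mapk6. ERK3 differs from the classical MAP kinases in having a single phosphorylation site in its activation loop and in being a short-lived protein, and it is known to accumulate as C2C12 myoblasts differentiate. The Mapk6 probe set 1419169_at had signals of 6053, 7423 and 8050 in palmitate, against 3343, 3485 and 3676 in BSA. Every palmitate array lay above every BSA array, and the lowest palmitate value was well clear of the highest BSA value. The fold was 2.04, a log2 fold change of 1.03 ± 0.15 (adjusted p = 0.000742). The second probe set, 1419168_at, read 1860, 1769 and 2273 in palmitate and 687, 821 and 840 in BSA. Its fold was 2.51, a log2 fold change of 1.33 ± 0.20 (adjusted p = 0.000714), so both probe sets of the gene gave a rise of the same order without overlap of the groups. These were the smallest adjusted p-values among the members. Both calls held in each of the 15 alternative settings tried, with log2 fold changes of 0.69 to 1.14 for 1419169_at and 0.99 to 1.40 for 1419168_at, the lowest being those after scaling to the hybridisation controls.

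RefSeq gives Mapk6 a pair of start sites on the minus strand of chromosome 9 (GRCm38.p6), and the 250 bases before each are shown because Mapk6 is the member with the clearest rise. Capitals mark matches to the letters of the antioxidant response element, TGACNNNGC, and to CCACG, the second part of the endoplasmic reticulum stress element, on either strand. Both run 5′ to 3′ on the minus strand, the first at chr9:75410017-75410266 and the second at chr9:75409360-75409609.
Mapk6 upstream start: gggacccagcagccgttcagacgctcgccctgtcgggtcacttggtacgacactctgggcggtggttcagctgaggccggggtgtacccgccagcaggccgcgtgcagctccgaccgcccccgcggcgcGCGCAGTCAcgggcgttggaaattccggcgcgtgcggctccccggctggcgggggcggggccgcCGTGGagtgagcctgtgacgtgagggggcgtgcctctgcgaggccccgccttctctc
Mapk6 downstream start: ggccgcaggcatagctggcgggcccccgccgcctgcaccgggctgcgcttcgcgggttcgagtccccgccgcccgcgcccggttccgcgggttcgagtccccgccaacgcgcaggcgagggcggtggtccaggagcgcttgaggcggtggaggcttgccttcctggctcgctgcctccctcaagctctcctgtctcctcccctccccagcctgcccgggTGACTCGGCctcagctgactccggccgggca

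Both windows are rich in G and C (74.0% and 75.2% of bases), and each holds 1 match to TGACNNNGC. Neither holds TGACTCA (AP-1), TGACGTCA (the cyclic AMP response element), TGATGCAAT (the composite C/EBP and ATF element) or GAANNTTC (a pair of heat shock units). Among all 32851 RefSeq promoter windows of 250 bases, 10.2% hold TGACNNNGC, 28.3% hold CCACG, 4.46% hold TGACTCA, 1.55% hold TGACGTCA, 0.167% hold TGATGCAAT and 6.69% hold GAANNTTC, each on either strand. RefSeq windows were matched for 33 of the 38 members, 44 windows in all. Of these, 11 hold TGACNNNGC, 21 (47.7%) hold CCACG, 2 hold GAANNTTC, 1 holds TGACGTCA (Mapk10), and 0 hold TGACTCA or TGATGCAAT. These are matches of letters, not sites shown to be used.

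**Figure D2:**
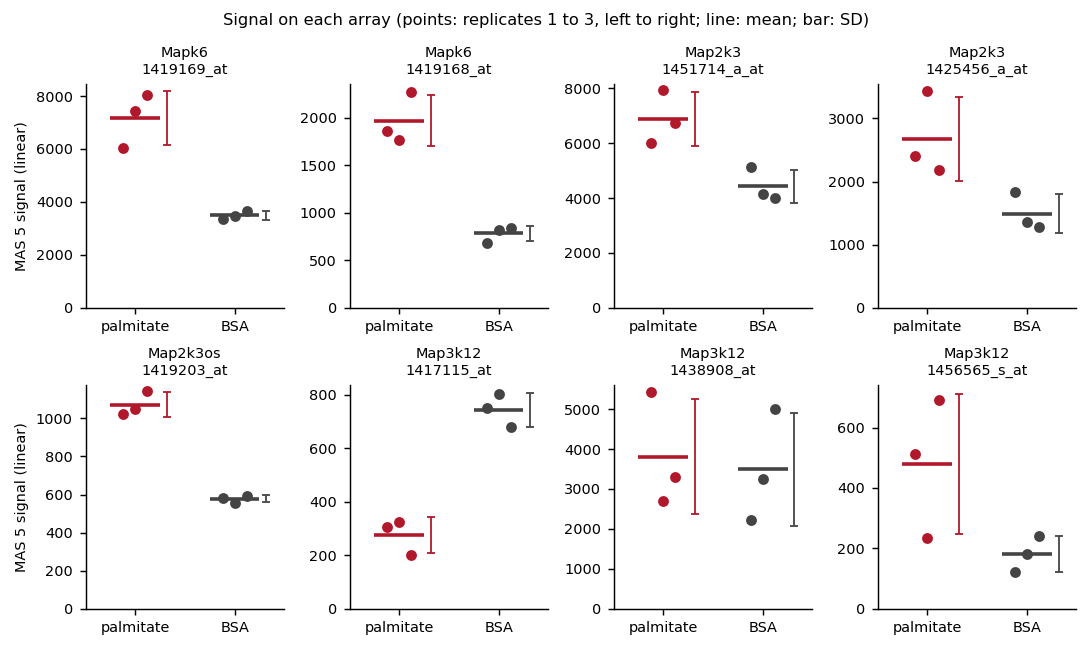
MAS 5 signal on each array (linear scale from 0) for the 6 called probe sets and the other 2 probe sets of Map3k12, palmitate left and BSA right, with a line for the mean and a bar for the SD of 3 arrays. The groups do not overlap for Mapk6, Map2k3, Map2k3os and the Map3k12 probe set 1417115_at, and the 3 probe sets of Map3k12 differ in direction.

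Among the MAP2Ks, Map2k3 was the gene called. MKK3 and its close relative MKK6 are the kinases dedicated to p38. The Map2k3 probe set 1451714_a_at had signals of 5991, 7938 and 6747 in palmitate, against 5124, 4162 and 3988 in BSA. The groups did not overlap, and palmitate replicate 2 was the highest of the 6 arrays. The log2 fold change was 0.64 ± 0.16, a fold of 1.56 (adjusted p = 0.0169). The probe set 1425456_a_at read 2403, 3426 and 2176 in palmitate and 1841, 1352 and 1276 in BSA, again without overlap and again highest on palmitate replicate 2. Its log2 fold change was 0.83 ± 0.22, a fold of 1.78 (adjusted p = 0.0195). Both calls ended without palmitate replicate 2 (0.53, adjusted p = 0.0562, and 0.64, adjusted p = 0.0649), without BSA replicate 2 or 3 (adjusted p up to 0.0795), without the intensity trend of limma (adjusted p up to 0.0585), and after scaling to the hybridisation controls (0.31, adjusted p = 0.279, and 0.50, adjusted p = 0.159). The sign was positive in all 15 alternatives for both probe sets.

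Map2k3os, a long noncoding RNA gene in RefSeq, lies next to Map2k3. Its signals were 1023, 1050 and 1144 in palmitate, against 582, 558 and 594 in BSA. Every palmitate array lay above every BSA array, with means of 1072 ± 63.1 and 578 ± 18.5 (SD, n = 3 each). The log2 fold change was 0.89 ± 0.21, a fold of 1.85 (adjusted p = 0.0131). The call ended without palmitate replicate 3 (0.84, adjusted p = 0.0557) and after scaling to the hybridisation controls (0.56, adjusted p = 0.144). RefSeq places the start of Map2k3os on the minus strand and that of Map2k3 on the plus strand of chromosome 11, so the genes run away from each other with 186 bases between their starts. That stretch, chr11:60931868-60932053 (GRCm38.p6, plus strand), is shown because the called transcripts on either side of it share it as their upstream sequence, with capitals for CCACG on the minus strand.
Map2k3os to Map2k3: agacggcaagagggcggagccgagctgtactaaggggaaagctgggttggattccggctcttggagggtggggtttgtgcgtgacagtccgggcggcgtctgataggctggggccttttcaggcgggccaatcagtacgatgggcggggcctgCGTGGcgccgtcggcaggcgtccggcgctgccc

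The stretch is 67.7% G and C. It has 1 match to CCACG and holds none of the other 5 motifs searched, whose letters are given with the Mapk6 windows.

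The other MAP2Ks were not called. Map2k1, which encodes the ERK kinase MEK1, read 6516, 6535 and 6483 in palmitate and 5323, 5761 and 4965 in BSA. The groups did not overlap and the palmitate values were nearly identical, and the log2 fold change was 0.29 ± 0.14 (95% interval -0.01 to 0.58, adjusted p = 0.167), or -0.05 after scaling to the hybridisation controls. Map2k2, which encodes MEK2, was at -0.03 ± 0.20 and 0.25 ± 0.28 on its probe sets. Map2k4, whose kinase MKK4 acts on JNK and p38, read 2231, 1542 and 2395 in palmitate and 1610, 2115 and 1979 in BSA on the probe set 1451982_at (0.10 ± 0.21, 95% interval -0.36 to 0.55). On 1426233_at it read 660, 874 and 602 in palmitate and 510, 504 and 855 in BSA (0.22 ± 0.29). The groups overlapped on both. Map2k5, which encodes the ERK5 kinase MEK5, was at -0.11 ± 0.25 and -0.09 ± 0.25. Map2k6, which encodes MKK6, was too dim to be tested, with signals of 128, 21.2 and 70.2 in palmitate and 68.3, 52.2 and 56.9 in BSA.

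The p38 genes, which encode the kinases downstream of MKK3, were not called. Mapk14, which encodes p38 alpha, read 1878, 2147 and 2062 in palmitate and 2821, 2690 and 2084 in BSA on the probe set 1416703_at. The groups overlapped by a single BSA array, and the log2 fold change was -0.31 ± 0.18 (95% interval -0.69 to 0.07, adjusted p = 0.251). After scaling to the hybridisation controls this probe set was called lower (-0.64, adjusted p = 0.0353). A second Mapk14 probe set, 1416704_at, pointed the other way, with 389, 806 and 720 in palmitate, against 375, 238 and 415 in BSA (0.87 ± 0.37, 95% interval 0.06 to 1.68, adjusted p = 0.127). The other 2 Mapk14 probe sets were too dim to be tested and their groups overlapped. They read 158, 245 and 19.5 in palmitate and 108, 42.4 and 237 in BSA on 1426104_at, and 51.8, 274 and 95.3 in palmitate and 70.8, 147 and 175 in BSA on 1451927_a_at. Mapk12, whose product p38 gamma is known for its abundance in skeletal muscle, read 1036, 1132 and 1040 in palmitate and 1487, 1255 and 1238 in BSA. All palmitate values were below all BSA values, at -0.31 ± 0.19 (95% interval -0.72 to 0.10, adjusted p = 0.288). Mapk11, which encodes p38 beta, was at -0.44 ± 0.38 on the probe set tested, where palmitate signals ran from 248 to 707 and enclosed the BSA signals of 503 to 588. Mapk13 (p38 delta) was too dim to be tested, at 32.2 to 79.5 in palmitate and 20.9 to 185 in BSA. In the RefSeq gene order Mapk11 lies next to Mapk12 and Mapk13 next to Mapk14.

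**Figure D3:**
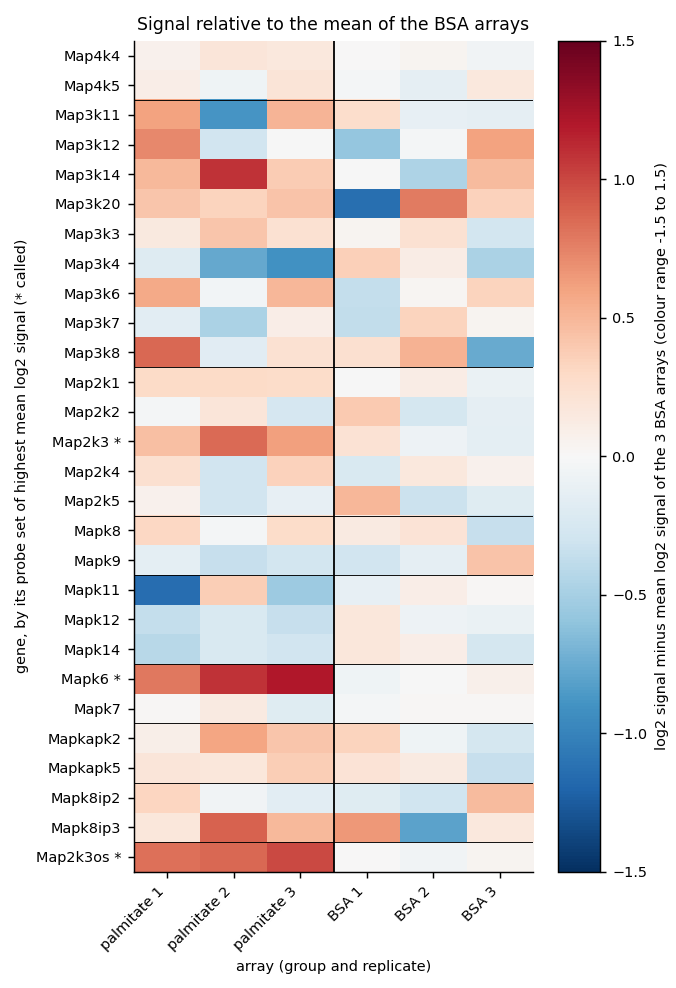
Log2 signal of each of the 28 member genes tested on each array, minus the mean of the 3 BSA arrays, for the probe set of highest mean signal (rows, grouped by tier; columns, palmitate replicates left of BSA replicates). Mapk6, Map2k3 and Map2k3os (marked *) are raised on all 3 palmitate arrays, while most other rows mix colours within a group.

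No probe set of the JNK genes was called. Mapk8, which encodes JNK1, read 2481, 1951 and 2419 in palmitate and 2199, 2297 and 1576 in BSA on the probe set 1420932_at, with overlapping groups (0.19 ± 0.20, 95% interval -0.24 to 0.61, adjusted p = 0.555). Its probe set 1420931_at read 385, 350 and 345 in palmitate and 88.5, 444 and 434 in BSA (0.48 ± 0.58), with BSA replicate 1 far below the other arrays. The third, 1437045_at, read 289, 343 and 552 in palmitate and 656, 472 and 570 in BSA (-0.56 ± 0.34, adjusted p = 0.272). Mapk9, which encodes JNK2, read 1646, 1439 and 1509 in palmitate and 1496, 1654 and 2446 in BSA on 1421877_at (-0.25 ± 0.21, 95% interval -0.71 to 0.20). On 1421876_at it read 855, 694 and 532 in palmitate and 720, 617 and 753 in BSA (-0.03 ± 0.26). On 1421878_at it read 298, 484 and 232 in palmitate and 414, 179 and 299 in BSA (0.20 ± 0.46), so the groups overlapped on all 3 probe sets. Mapk10, which encodes the mainly neuronal JNK3, was too dim to be tested on both of its probe sets. Mapk7, which encodes ERK5, read 615, 669 and 534 in palmitate and 593, 616 and 614 in BSA (-0.01 ± 0.25, 95% interval -0.55 to 0.53).

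The MAP3K tier is the largest, with 13 genes and 24 probe sets, of which 9 genes and 17 probe sets were tested. Map3k12 gave the single call and also the clearest disagreement between probe sets. The dual leucine zipper kinase acts on the JNK branch and is known mainly from injured neurons. The probe set 1417115_at had signals of 305, 325 and 200 in palmitate, against 749, 802 and 678 in BSA. The palmitate values were all under the lowest BSA value, with means of 277 ± 67.3 and 743 ± 61.9 (SD, n = 3 each). The log2 fold change was -1.45 ± 0.32 (adjusted p = 0.00784), and it was called lower in all 14 alternatives that tested it. The probe set 1438908_at read 5427, 2708 and 3298 in palmitate and 2219, 3251 and 5006 in BSA, a wide and overlapping spread (0.14 ± 0.30, adjusted p = 0.785). The probe set 1456565_s_at read 511, 234 and 693 in palmitate and 122, 182 and 240 in BSA, where palmitate replicate 2 fell inside the BSA range (1.32 ± 0.50, 95% interval 0.22 to 2.41, adjusted p = 0.0898). Without palmitate replicate 2 this last probe set was called higher (1.77, adjusted p = 0.0306), so that Map3k12 then had probe sets called in both directions.

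The disagreement was widest for 1417115_at against 1456565_s_at, whose log2 difference within each array was -0.75, 0.48 and -1.79 in palmitate and 2.61, 2.14 and 1.50 in BSA. The groups' means of that difference, palmitate minus BSA, lay -2.77 apart. They lay -1.60 apart for 1417115_at minus 1438908_at and -1.18 apart for 1438908_at minus 1456565_s_at. These are descriptions, since the pairs were looked at for their disagreement. Per the platform annotation, 1438908_at and 1456565_s_at were designed from the same sequence record and 1417115_at from another. In Affymetrix naming, the suffix _s marks probe sets whose probes are shared among transcripts, which can be those of different genes. Averaged over its probe sets, Map3k12 was at 0.00 ± 0.25 (adjusted p = 0.998), and its representative probe set 1438908_at was not called. The direction of the gene as a whole is therefore not given by these probe sets.

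The remaining MAP3Ks were not called on any probe set. Map3k7 encodes TAK1, which relays signals of cytokine and Toll-like receptors, and it was measured by 5 probe sets. On 1455441_at it read 1701, 1369 and 2040 in palmitate and 1477, 2393 and 1951 in BSA (-0.18 ± 0.22, 95% interval -0.66 to 0.30). On 1425795_a_at it read 1136, 1443 and 1517 in palmitate and 927, 1028 and 1013 in BSA, without overlap (0.45 ± 0.20, 95% interval 0.02 to 0.89, adjusted p = 0.136). On 1419988_at the groups did not overlap in the other direction, with 557, 463 and 545 in palmitate and 650, 679 and 688 in BSA (-0.37 ± 0.25, adjusted p = 0.336). On 1426627_at it read 309, 386 and 200 in palmitate and 292, 390 and 388 in BSA (-0.30 ± 0.40), with overlapping groups, and the last was too dim to be tested.

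Map3k4, which encodes MEKK4, a kinase bound by GADD45 proteins, had log2 fold changes below 0 on both probe sets, and neither was called. On 1421450_a_at it read 716, 483 and 437 in palmitate and 1054, 888 and 588 in BSA (-0.62 ± 0.30, adjusted p = 0.174), and scaling to the hybridisation controls called this probe set lower. Map3k14 encodes NIK, the kinase of the noncanonical NF-kB pathway. It read 763, 1155 and 711 in palmitate and 542, 395 and 759 in BSA on 1422999_at (0.65 ± 0.30, adjusted p = 0.162), and was at -0.08 ± 0.34 on its second probe set. Map3k3, which encodes MEKK3 of the ERK5 branch, was at 0.26 ± 0.22 and 0.54 ± 0.40. Map3k6 (ASK2) was at 0.34 ± 0.39, Map3k8 (TPL2, which feeds ERK signalling in inflammation) at 0.30 ± 0.46, Map3k11 (MLK3) at 0.07 ± 0.49 and Map3k20 (ZAK, the sensor of stalled ribosomes) at 0.39 ± 0.49. Map3k1 (MEKK1) and Map3k5 (ASK1, known as a kinase of oxidative and endoplasmic reticulum stress) were too dim to be tested. Map3k1 read 171, 240 and 219 in palmitate and 278, 241 and 224 in BSA. Map3k5 read 39.9, 159 and 12.5 in palmitate and 28.8, 22.2 and 215 in BSA, a spread within each group far wider than any difference between them.

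At the top of the cascade, the MAP4Ks were represented by 6 tested probe sets, all with a log2 fold change above 0 and 0 called. After scaling to the hybridisation controls 5 of the 6 were below 0. Map4k4, a kinase upstream of JNK known as a negative regulator of glucose uptake in fat cells, read 5819, 6316 and 6216 in palmitate and 5569, 5742 and 5384 in BSA on 1434184_s_at. The palmitate arrays were all above the BSA arrays, by a small margin (0.14 ± 0.13, 95% interval -0.16 to 0.43, adjusted p = 0.525). Its other tested probe sets were at 0.29 ± 0.26 and 0.27 ± 0.30. Map4k5 was at 0.08 ± 0.18 and 0.32 ± 0.38 on 2 probe sets. On 1427083_a_at it read 461, 539 and 441 in palmitate and 116, 370 and 361 in BSA, with the distance set largely by BSA replicate 1 (0.94 ± 0.47, adjusted p = 0.188).

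Downstream of the MAP kinases, both MAPKAPK genes tested were above 0 without passing, and 1 of the 2 was below 0 after scaling to the hybridisation controls. Mapkapk2 encodes MK2, the p38 substrate that stabilises cytokine messenger RNAs. It read 2107, 2989 and 2640 in palmitate and 2488, 1891 and 1650 in BSA, with overlapping groups (0.37 ± 0.20, 95% interval -0.08 to 0.81, adjusted p = 0.238). Mapkapk5 encodes MK5, the known partner kinase of ERK3. It read 1690, 1680 and 1927 in palmitate and 1727, 1645 and 1177 in BSA (0.24 ± 0.20, 95% interval -0.19 to 0.67, adjusted p = 0.446). For Mapk6 itself the 95% interval ran from 0.69 to 1.36 on 1419169_at, and the difference between the genes was not tested.

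Of the JIP scaffolds, Mapk8ip2 was at 0.04 ± 0.36 and Mapk8ip3 at 0.51 ± 0.35 on the probe set tested for each. Mapk8ip1, which encodes JIP1, had a single dim probe set with signals of 572, 416 and 170 in palmitate and 146, 80.3 and 162 in BSA. The groups did not overlap, but by a margin of a few units of signal between palmitate replicate 3 and the highest BSA array. Of the 22 dim member probe sets, those of Map3k20 (188, 211 and 192 in palmitate and 25.6, 110 and 140 in BSA) and Mapk11 (254, 242 and 170 in palmitate and 165, 28.8 and 155 in BSA) also did not overlap with palmitate higher, and 1449693_at of Map3k7 (219, 176 and 135 in palmitate and 316, 265 and 789 in BSA) did not overlap with palmitate lower. Among all probe sets that passed the filter, 37.2% had groups that did not overlap. The share among all dim probe sets was not counted, so these dim cases are descriptions. When all 22626 probe sets were tested without a filter, 0 of the 22 dim member probe sets were called, and the calls among members were the 5 higher and 1 lower given above.

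Genes that act around the cascade were counted from lists of its known parts, with each gene represented by its probe set of highest mean signal. The nuclear substrates, transcription factors that MAP kinases phosphorylate, were the list with the most calls, 8 higher and 1 lower of 24, where 7.92% of all genes tested were called higher and 12.3% lower. The AP-1 subunit gene Fos read 7047, 5624 and 7887 in palmitate, against 1223, 1505 and 1747 in BSA (2.20 ± 0.19, adjusted p = 1.68e-05). Its family member Fosl1 was at 1.88 ± 0.16, and the stress factor gene Ddit3, which encodes CHOP, at 1.56 ± 0.14. Myc was at 1.41 ± 0.14, and Elk3, a partner of the serum response factor, was the gene called lower (-0.66 ± 0.19). The other higher calls were Jun, Ets1, Junb and Fosb, and quantile normalization ended the calls of Fosb and Elk3 (7 higher and 0 lower). The median of the list was 0.20, and after scaling to the hybridisation controls the calls were 6 higher and 4 lower.

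The phosphatases that switch MAP kinases off had 4 higher and 0 lower calls of 16 tested, with a median of 0.09. Over all genes tested, 7.92% were called higher and 12.3% lower. Dusp16, which encodes a phosphatase of JNK, read 3058, 2839 and 3004 in palmitate, against 1805, 1785 and 1600 in BSA (0.78 ± 0.16, adjusted p = 0.00525). Dusp1, which encodes the phosphatase MKP-1 of p38 and JNK, was at 0.67 ± 0.14, and Dusp6, which encodes the phosphatase MKP-3 of the ERK kinases, at 0.84 ± 0.18. Dusp10, which encodes the phosphatase MKP-5 of JNK and p38, was at 0.56 ± 0.16. The groups did not overlap for any of these 4. All 4 calls were lost after scaling to the hybridisation controls, which left 0 higher and 1 lower.

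The inputs to the stress branches had 3 higher and 0 lower calls of 18 tested, with a median of 0.07. The shares over all genes tested were again 7.92% higher and 12.3% lower. Trib3, which encodes a pseudokinase that binds MAP2Ks, read 3521, 5191 and 3848 in palmitate and 1841, 1438 and 1590 in BSA (1.35 ± 0.19, adjusted p = 0.000479). Gadd45b, whose product binds the kinase encoded by Map3k4, read 12337, 10294 and 11589 in palmitate and 6411, 5589 and 5814 in BSA (0.94 ± 0.14, adjusted p = 0.000631). Its relative Gadd45a was at 0.53 ± 0.13, and the kinase gene Pak2 was not called at 0.48 ± 0.20. Trib3 and Gadd45b were also called after scaling to the hybridisation controls, where the list had 2 higher and 3 lower calls.

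Ras and Raf inputs had 2 higher and 0 lower calls of 11 tested, the small GTPase genes Rap1b (0.61 ± 0.14) and Rras2 (0.59 ± 0.14), and both were lost after scaling to the hybridisation controls. For this list and the next ones, the shares over all genes tested were 7.92% higher and 12.3% lower. Scaffolds and adaptors outside the JIP family had 0 higher and 2 lower calls of 9, namely Gab1 (-0.97 ± 0.25), an adaptor of receptor tyrosine kinases, and Iqgap1 (-0.54 ± 0.15), a scaffold of the ERK module. Median centring ended the Iqgap1 call, and scaling to the hybridisation controls gave 4 lower calls, with Mapkap1 and Flna added. The effector kinases other than the MAPKAPKs had 0 calls of 5 in limma, with Mknk2 at -0.31 ± 0.17 and Rps6ka3 at -0.37 ± 0.20, and both of these were called lower after scaling to the hybridisation controls.

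**Figure D4:**
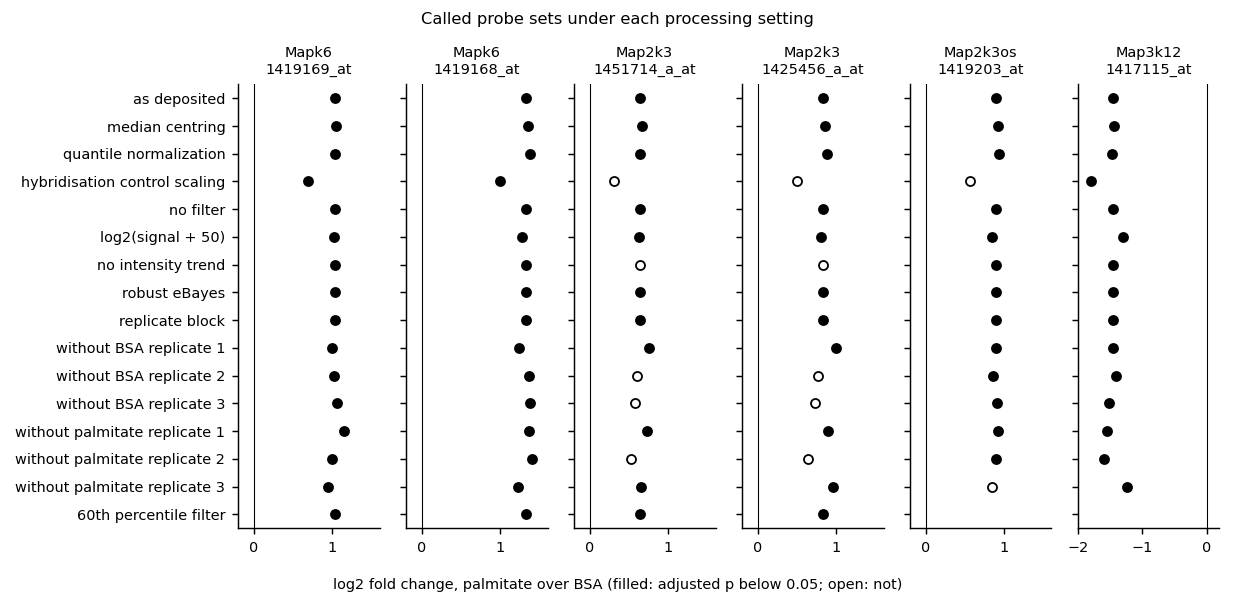
Log2 fold change (palmitate over BSA, horizontal axis) of the 6 called probe sets as deposited and under each of the 15 alternative settings (rows), with filled points for an adjusted p under 0.05. Both Mapk6 probe sets are filled throughout, the Map2k3 probe sets are filled in 10 of the 15 alternatives, and Map2k3os and the Map3k12 probe set have no point under the 60th percentile filter, where they were too dim to be tested.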

How the data were processed

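The data are 6 Affymetrix mouse 430A 2.0 arrays of C2C12 myotubes, 3 with palmitate and 3 with BSA. The deposited values are signal intensity per probe set on a linear scale, made by the authors with MAS 5.0 per the labels' protocols, and each array has the same trimmed mean. No scanner file, detection call or scan date was analysed here, so scan batches were not tested. The array values carry no genome coordinates. Gene symbols came from the platform annotation, and all 38 member symbols matched RefSeq, whose promoter table (GRCm38.p6) gave the sequences.

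Control probe sets were left out, log2 signals were not normalized further, and those past the 40th percentile (taken on the mean log2 signal) were fitted with limma 3.58.1 (R 4.3.3; lmFit, eBayes with intensity trend, two-sided). Adjusted p-values are Benjamini-Hochberg values over the 13575 probe sets kept. The script was tested on simulated data. The precision is limited by 3 arrays a group. Every value of a gene is given where it was called or where it belongs to a fixed set of the best known kinases (the MAP kinases Mapk8, Mapk9 and Mapk14, Map2k1, Map2k3, Map2k4, Map2k6, Map3k1, Map3k5, Map3k7, Mapkapk2 and Mapk8ip1), and further genes are given by their fold change or, where groups were apart or probe sets disagreed, by their values. Up to 4 genes of smallest p are named from each list around the cascade, and further called genes of a list were named after their values were seen. Members and lists were chosen with earlier results of these data known.

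The alternatives were median centring, quantile normalization, scaling to 9 hybridisation controls, no filter, a 60th percentile filter, log2(signal + 50), no intensity trend, robust eBayes, a replicate block, leaving out each array, and averaging a gene's probe sets. Same-numbered arrays had correlations of -0.233, -0.133 and 0.00914 between their deviations from the group means, so the numbers were not taken as pairs.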

Additional observations from a re-analysis of the deposited data

How the results depend on the processing

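The count of 5 member probe sets called higher became 2 after scaling to the hybridisation controls, 3 without the intensity trend, and 3 to 5 when single arrays were left out. It was 3 without BSA replicate 2 or 3, where both Map2k3 calls were lost. The count of 1 called lower became 3 after scaling to the controls and 0 under the 60th percentile filter, which left the Map3k12 probe set untested. The gene count of 3 lay between 2 and 3 throughout, but after scaling to the controls its members were Mapk6, Mapk14 and Map3k4. That scaling changed the sign of 17 of the 50 member log2 fold changes, all uncalled. Among the genes given in full these were Map3k12 1438908_at (-0.19), Map2k1 (-0.05), Map2k4 1426233_at (-0.11) and 1451982_at (-0.24), Mapk8 1420932_at (-0.15) and Mapk9 1421878_at (-0.14). Mapk9 1421876_at was at 0.03 after quantile normalization, which changed the sign of 2 members, and median centring changed 1. Leaving out single arrays gave ranges across 0 for Map3k12 1438908_at (-0.15 to 0.44), Map2k4 1451982_at (-0.03 to 0.29), Mapk8 1420931_at (-0.29 to 0.88), Mapk9 1421876_at (-0.19 to 0.15) and Mapk9 1421878_at (-0.13 to 0.48). The shift of 0.33 comes from the scaling itself, and the cause of the other changes was not tested. With the replicate block the members again gave 5 higher and 1 lower, while the calls over all probe sets numbered 1973 in place of 2609, and over all settings they ran from 1579 (without BSA replicate 2) to 3573 (scaling to the controls). Same-numbered arrays share only a number, and no array correlated best with its own number. Dim probe sets limit what can be said of the 22 member probe sets not tested.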
